A study of Bos taurus with 12 samples.

Results

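The long noncoding RNAs (lncRNAs) described here were low in differentiating bovine intramuscular preadipocytes at 3 d alone. They were selected on their measured levels: an assembled lncRNA transcript was a member when its lowest FPKM among the 9 libraries of 0, 6 and 9 d was at least 0.3 and at least 1.5 times its highest FPKM among the 3 libraries of 3 d. Of 7035 lncRNA transcripts, 172 met this rule, from 166 of 6214 assembled loci. FPKM is a read level scaled by transcript length and library size. Every difference between 3 d and the other days was therefore used to choose the members, and their 3 d levels are given as a description without a test. The cells were intramuscular preadipocytes of newborn Qinchuan cattle, freed from longissimus dorsi muscle by digestion, cultured and sampled as total RNA in 3 libraries per day. The 0 d cells were at the start of induction, after growth in complete medium with serum. The 3 d, 6 d and 9 d cells had received dexamethasone, IBMX and insulin in that medium, and dexamethasone and IBMX had been withdrawn before 3 d, with insulin alone kept from then on. Cells of the same age without inducers were not analysed here, so time in culture and the inducers cannot be told apart. The labels call the libraries of a day replicates without naming animals, so p-values measure only the spread between these libraries.

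LncRNAs are transcripts without an evident protein-coding frame that are mostly made by RNA polymerase II, and many are kept in the nucleus at low levels and turned over quickly by the nuclear RNA exosome. Some act on chromatin or on neighbouring genes, others bind proteins or microRNAs, and for most assembled transcripts no function is known. In preadipocytes, dexamethasone, IBMX and insulin start adipogenic differentiation through the glucocorticoid receptor, cyclic AMP and insulin signalling, and the early days of induction hold a wave of transcription factor changes that precedes lipid filling. The members carried assembler numbers (MSTRG) in place of gene names, and their sequences, positions and lengths were not analysed here.

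Libraries of a day were not equally high across lncRNAs. A median-ratio factor, which compares each library with the mean profile of all 12, was 1.03, 1.34, 0.807 (0 d), 1.75, 1.18, 1.18 (3 d), 1.06, 0.893, 0.842 (6 d) and 0.932, 0.836, 0.783 (9 d). The libraries 0 d replicate 2 and 3 d replicate 1 thus stood above the others of their day. Among the members, 0 d replicate 2 held the highest 0 d value for 114 of 172 transcripts (66.3%) and 3 d replicate 1 the highest 3 d value for 91 (52.9%), beside 64.3% and 68.6% of the lncRNAs with at least 0.3 FPKM in all 9 libraries of 0, 6 and 9 d. Without both libraries the rule took 241 lncRNAs, including all 172. Leaving out libraries can only relax the rule, so that the 172 stayed was fixed in advance.

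The members were low to moderate in abundance on the days when they were present. Their mean over the 9 libraries of 0, 6 and 9 d ran from 0.708 to 99.4 FPKM with a median of 1.56 FPKM, and 14 of them were at 10 FPKM or more. Member medians were 1.58, 1.95, 1.29 FPKM (0 d), 0.21, 0.18, 0.17 FPKM (3 d), 1.57, 1.40, 1.31 FPKM (6 d) and 1.54, 1.42, 1.39 FPKM (9 d). No 3 d library came near those of the other days, as the rule required. In the 3215 lncRNAs that met the floor of 0.3 FPKM in all 9 libraries the medians at 3 d were 1.75, 1.25 and 1.25 FPKM, against 0.94 to 1.56 FPKM in the 9 other libraries. The 3 d mean of a member was 13.2% of its mean over the other days at the median, from 0% to 56.4%. All 3 libraries of 3 d were listed at 0 for 7 members, and at least 1 of them for 45. Because these are bulk libraries, fewer cells with a transcript and less of it per cell cannot be told apart.

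**Figure D1:**
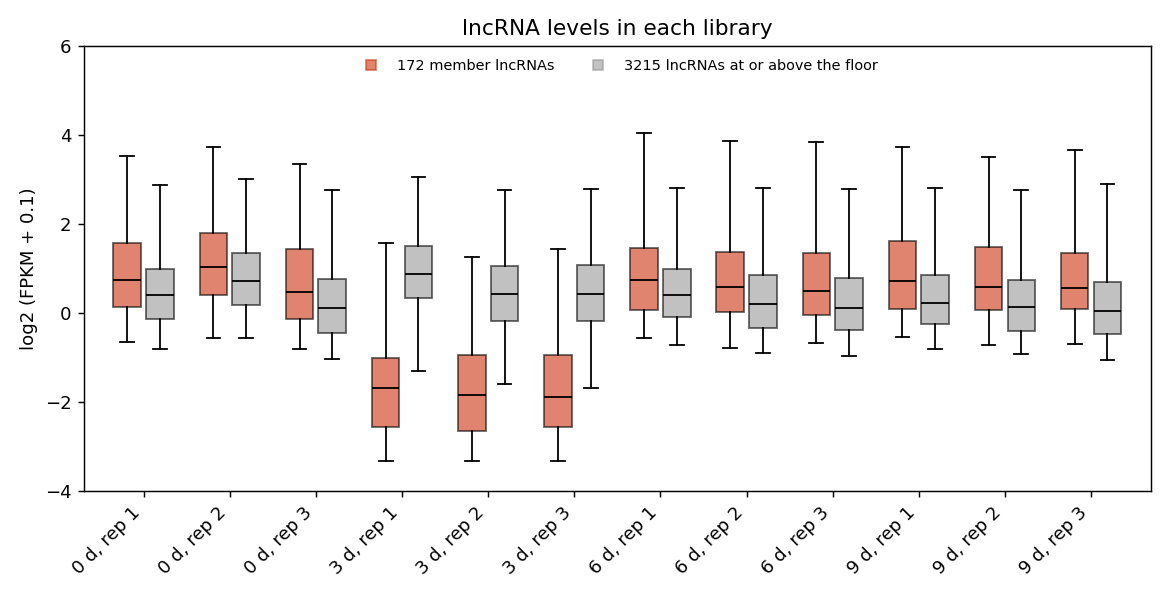
Box plots of log2 (FPKM + 0.1) in each of the 12 libraries for the 172 members and for the 3215 lncRNAs that met the floor of 0.3 FPKM at 0, 6 and 9 d, which include the members; boxes span the quartiles, lines are medians and whiskers reach the 5 and 95 percentiles. Member medians lay between 0.17 and 0.21 FPKM at 3 d and between 1.29 and 1.95 FPKM on the other days.

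Summed over all members, FPKM reached 622, 692, 539 (0 d), 140.0, 129, 134 (3 d), 774, 760.0, 742 (6 d) and 769, 707, 726 (9 d). The 3 d sums were below the other 9, a direction that the choice of members fixes. Without the 2 most abundant members the sums were 529, 605, 463 (0 d), 598, 570.0, 553 (6 d) and 563, 501, 532 (9 d), and the ranges of 0 d and the later days then overlapped. Among 0, 6 and 9 d, the day mean was highest at 0 d for 80 members (46.5%), at 6 d for 46 and at 9 d for 46, beside 55.8%, 25.7% and 18.4% of lncRNAs at the floor. After rescaling, an alternative chosen after seeing the data, it was highest at 0 d for 62 members (36.0%). It was then highest at 6 d for 42 (24.4%) and at 9 d for 68 (39.5%), beside 38.3%, 29.4% and 32.3% of lncRNAs at the floor. The lead of 0 d among members thus depended on the scaling, and at the floor it became smaller.

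MSTRG.25536.1 was the most abundant member over 0, 6 and 9 d, at 91.0, 84.9, 73.9 FPKM (0 d), 39.4, 38.0, 42.3 (3 d), 117, 126, 129.9 (6 d) and 89.7, 84.7, 98.1 (9 d). It kept a high level at 3 d, and its lowest value on the other days was 1.75 times its highest 3 d value. MSTRG.8735.1 followed, with 2.21, 2.1, 2.07 FPKM (0 d), 0.47, 0.44, 0.56 (3 d), 59.9, 63.6, 58.2 (6 d) and 116, 122, 95.8 (9 d). Its 9 libraries of 0, 6 and 9 d spanned a wide range, low at 0 d and high at 9 d, with no overlap between any 2 days. MSTRG.9830.1 measured 20.8, 23.9, 20.2 FPKM (0 d), 6.39, 6.99, 7.06 (3 d), 69.7, 93.6, 69.9 (6 d) and 56.1, 53.2, 46.9 (9 d), highest at 6 d in every library and again without overlap between days.

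MSTRG.25554.1 kept a narrow range, at 23.5, 22.2, 24.1 FPKM (0 d), 13.6, 13.7, 13.9 (3 d), 26.7, 25.5, 26.0 (6 d) and 22.3, 21.3, 27.5 (9 d). The 9 d libraries overlapped those of 0 d and of 6 d, and 3 d stood below them all. For MSTRG.4293.10 the values were 27.1, 29.6, 24.9 FPKM (0 d), 4.91, 3.46, 3.31 (3 d), 21.9, 22.7, 21.2 (6 d) and 15.8, 13.3, 13.9 (9 d). They were ordered from 0 d down to 9 d without overlap, with 3 d below all. MSTRG.5171.1 was uneven within days, at 13.1, 2.33, 1.39 FPKM (0 d), 0.77, 0.27, 0.57 (3 d), 38.0, 1.41, 39.2 (6 d) and 33.6, 1.6, 37.3 (9 d). Its replicate 2 at 6 d and at 9 d lay far below the other libraries of the day, and at 0 d replicate 1 lay far above them.

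MSTRG.10583.1 held 22.4, 21.1, 24.9 FPKM (0 d), 1.75, 1.78, 1.59 (3 d), 16.4, 18.9, 17.2 (6 d) and 14.4, 15.6, 15.2 (9 d). All libraries of 0 d lay above those of 6 d, and those of 6 d above those of 9 d. MSTRG.8720.1 was found at 15.5, 19.3, 8.9 FPKM (0 d), 0.26, 0.17, 0.19 (3 d), 17.5, 18.0, 11.8 (6 d) and 22.5, 20.2, 17.6 (9 d). Its 3 d values were close to 0 and its other days overlapped, and the lowest of those was 34.2 times the highest 3 d value. None of the 30 most abundant lncRNAs was a member, and MSTRG.25536.1 ranked 37 by its mean over all 12 libraries.

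**Figure D2:**
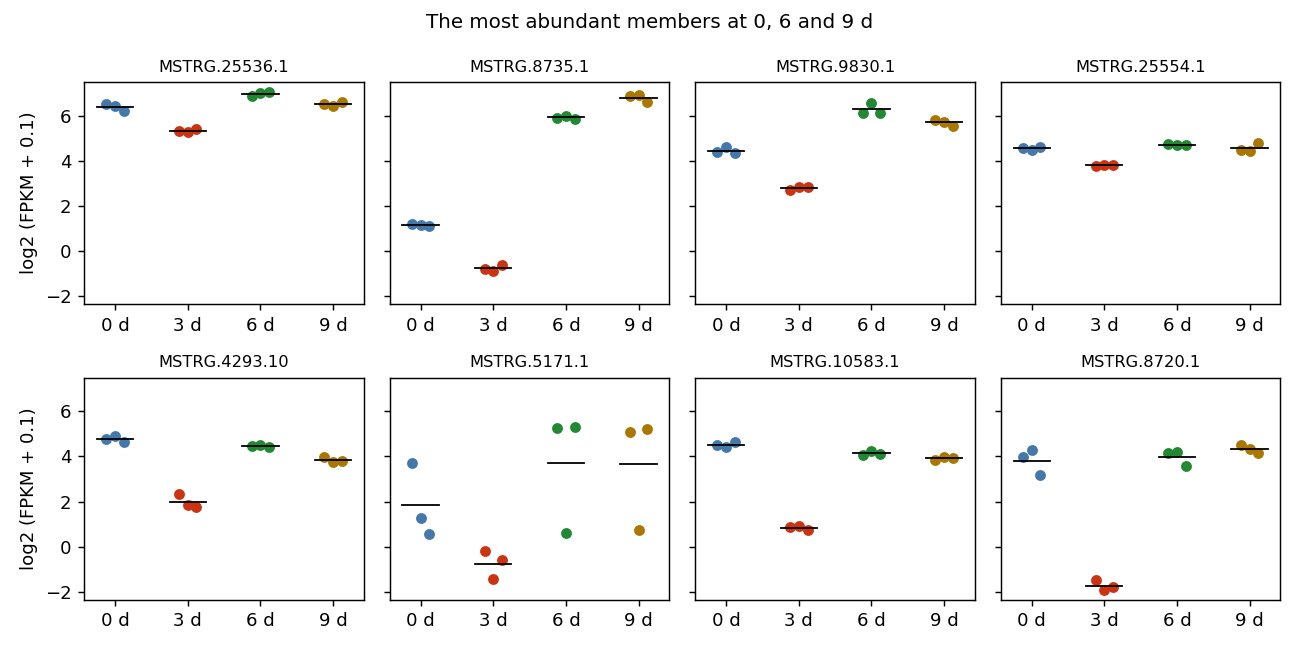
Values of log2 (FPKM + 0.1) for the 8 members with the highest mean FPKM at 0, 6 and 9 d, with 1 point per library (3 per day) and a line at the mean of the points. The 3 d points lie lowest in each panel, 0.44 to 0.56 FPKM for MSTRG.8735.1, and MSTRG.5171.1 varies most between libraries of a day.

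Some members were not detected at 3 d. Of the 7 members listed at 0 in all 3 d libraries, MSTRG.25421.1 was highest on the other days, at 1.12, 1.59, 1.14 FPKM (0 d), 0 in all 3 libraries (3 d), 2.92, 4.16, 3.84 (6 d) and 4.39, 3.97, 4.48 (9 d). All 6 libraries of 6 and 9 d were above all 3 of 0 d. MSTRG.23120.1 was at 1.5, 1.54, 1.06 FPKM (0 d), 0 in all 3 libraries (3 d), 2.43, 2.2, 1.93 (6 d) and 2.64, 2.5, 0.68 (9 d). Here 9 d replicate 3 fell below the 0 d range while the other 2 libraries of that day were above it. MSTRG.23422.1 varied more, with 0.4, 1.17, 0.75 FPKM (0 d), 0 in all 3 libraries (3 d), 1.91, 1.87, 1.47 (6 d) and 2.06, 0.66, 0.36 (9 d). Its 9 d libraries ran from below the 0 d range to above the 6 d range.

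MSTRG.7603.1 was at 0.36, 0.44, 0.47 FPKM (0 d), 0 in all 3 libraries (3 d), 1.71, 1.25, 0.67 (6 d) and 0.51, 0.91, 0.45 (9 d), and its 6 d libraries were above those of 0 d. MSTRG.16770.1 had 0.64, 1.24, 1.18 FPKM (0 d), 0 in all 3 libraries (3 d), 1.45, 1.48, 0.45 (6 d) and 0.35, 0.59, 0.58 (9 d). Here 6 d replicate 3 lay within the 9 d range, and the 0 d libraries were all above those of 9 d. MSTRG.21857.1 showed 0.34, 0.69, 1.25 FPKM (0 d), 0 in all 3 libraries (3 d), 1.94, 1.43, 1.14 (6 d) and 0.59, 1.06, 1.11 (9 d). The 0 d range overlapped those of 6 d and 9 d and the 6 d libraries were all above those of 9 d. MSTRG.12441.1, the last of the 7, was at 0.35, 0.43, 0.31 FPKM (0 d), 0 in all 3 libraries (3 d), 0.47, 0.37, 0.46 (6 d) and 1.79, 1.53, 1.49 (9 d). Its 9 d libraries stood clear above those of 0 and 6 d. Among members with a value above 0 at 3 d, MSTRG.3548.1 had the largest ratio, 38.5, from 0.88, 0.86, 0.79 FPKM (0 d), 0.02, 0.01, 0 (3 d), 0.77, 0.88, 0.83 (6 d) and 0.94, 1.12, 1.18 (9 d). The 0 d and 6 d libraries overlapped and those of 9 d were slightly higher. A ratio of 2 or more was held by 124 of the 172 members, counting those listed at 0, a ratio of 5 or more by 45 and a ratio of 10 or more by 21.

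Near the limits of the rule the members differed little from transcripts left out. Just inside the ratio of 1.5 were MSTRG.22302.4, MSTRG.12962.1 and MSTRG.10943.1, each with a ratio of 1.51. MSTRG.12962.1 was at 1.71, 1.71, 2.07 FPKM (0 d), 0.69, 0.69, 0.86 (3 d), 2.01, 2.03, 1.79 (6 d) and 1.32, 1.31, 1.3 (9 d). The 3 d libraries lay under all others. MSTRG.10943.1 was at 1.48, 1.85, 1.16 FPKM (0 d), 0.74, 0.59, 0.57 (3 d), 1.85, 1.43, 1.39 (6 d) and 1.71, 1.12, 1.56 (9 d). In both, all 3 d libraries lay under the lowest of the others. Just outside were MSTRG.23791.1 with a ratio of 1.49 and MSTRG.10593.1 and MSTRG.3539.1 with 1.48. MSTRG.23791.1 measured 4.66, 7.31, 3.07 FPKM (0 d), 1.9, 1.05, 1.64 (3 d), 5.13, 4.89, 4.32 (6 d) and 2.97, 3.84, 2.84 (9 d). Its 0 d libraries varied most. For MSTRG.10593.1 the values were 2.11, 3.02, 0.9 FPKM (0 d), 0.29, 0.13, 0.12 (3 d), 1.39, 0.43, 0.98 (6 d) and 1.02, 0.67, 0.84 (9 d), and MSTRG.3539.1 held 1.7, 2.64, 1.81 FPKM (0 d), 0.54, 0.5, 0.46 (3 d), 1.74, 0.92, 0.8 (6 d) and 1.2, 1.01, 0.86 (9 d). In MSTRG.10593.1 the 6 d replicate 2 alone brought the ratio under the limit. At the floor of 0.3 FPKM, MSTRG.1449.1 was just inside with 0.65, 1.69, 0.7 FPKM (0 d), 0.13, 0, 0 (3 d), 0.89, 0.37, 0.3 (6 d) and 1.16, 0.51, 0.99 (9 d). So were MSTRG.22760.1 and MSTRG.12441.1, each with a lowest value of 0.31 FPKM at 0 d. Just outside were MSTRG.21579.1, MSTRG.1450.1 and MSTRG.669.1, whose lowest values on the other days were all 0.29 FPKM. MSTRG.21579.1 was at 0.41, 0.65, 0.29 FPKM (0 d), 0.08, 0.07, 0.06 (3 d), 0.96, 2.57, 1.59 (6 d) and 1.45, 1.02, 1.58 (9 d). The values of MSTRG.1450.1 were 0.62, 1.77, 0.45 FPKM (0 d), 0.12, 0.05, 0.05 (3 d), 0.66, 0.45, 0.29 (6 d) and 0.8, 0.57, 0.77 (9 d). Those of MSTRG.669.1 were 1.1, 2.86, 0.65 FPKM (0 d), 0.09, 0.12, 0 (3 d), 1.32, 0.57, 0.46 (6 d) and 0.83, 0.72, 0.29 (9 d). In each of the 3 a single library brought the transcript under the floor.

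The rule left the order of 0, 6 and 9 d free. Whether the members came back at 6 d to their 0 d level was addressed by comparing these days in limma over all 6906 tested lncRNAs. All 172 members met the minimum mean of 0.1 FPKM. A member was called a differentially expressed lncRNA (DEL) at an absolute log2 (fold change) above 1 and an adjusted p below 0.05, with fold changes on the log2 (FPKM + 0.1) scale, which understates those of low transcripts. The rule requires at least 0.3 FPKM in every library of these days and so favours steady transcripts, for which reason the 3215 lncRNAs at the floor stand as a second background. That background is not matched to the members on the ratio to 3 d. The 3 d libraries, which the rule used, also enter the spread of each fit of all 12 libraries, and 7 members were at 0 in all of them. Differences between member shares and either background were not tested. The median log2 (fold change) over all tested lncRNAs was -0.14 for 6 d vs 0 d, -0.25 for 9 d vs 0 d and -0.10 for 9 d vs 6 d, and rescaling by the median-ratio factors brought each to 0. Member changes are therefore read against these shifts. The comparisons share libraries, so their counts are not independent of each other.

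Between 6 d and 0 d, 21 of 172 members were DELs, 12 higher at 6 d (6.98%) and 9 lower (5.23%). Over all tested lncRNAs 3.11% were called higher and 3.26% lower, and among lncRNAs at the floor 1.90% and 2.89%. The member median was -0.22, beside -0.14 for all, and 83 members lay above the median of all. For 54 members (31.4%) the 95% confidence interval of the log2 (fold change) lay within 1 of 0 on both sides, against 39.8% of lncRNAs at the floor and 20.3% of all tested. The 151 members without a call include many with wider intervals and are not taken as unchanged. The count of DELs was 12 without 0 d replicate 1 (7 higher, 5 lower), 12 without 6 d replicate 3 (7 and 5), 12 in a fit of the 6 libraries compared (8 and 4) and 8 with a pseudocount of 1 (6 and 2). Falls outnumbered rises without 0 d replicate 3 (9 higher, 14 lower) and without 6 d replicate 1 (7 and 8). After rescaling, 25 members were called, 18 higher and 7 lower, which moved the share called higher from 57.1% to 72.0%. The calls over all tested lncRNAs moved too, from 215 higher and 225 lower to 328 and 234 after rescaling, 172 and 250 without 0 d replicate 3 and 146 and 173 without 6 d replicate 1.

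MSTRG.8735.1, with the values given above, had the largest rise from 0 d to 6 d (log2 (fold change) 4.77 ± 0.13 (SE), limma adjusted p = 1.34e-08), higher in 3 of 3 libraries. MSTRG.22760.1 was at 1.09, 0.8, 0.31 FPKM (0 d), 0, 0.05, 0 (3 d), 3.43, 4.21, 4.05 (6 d) and 4.0, 3.16, 3.32 (9 d). Its 6 d libraries were all above its 0 d libraries (log2 (fold change) 2.39 ± 0.36 (SE), limma adjusted p = 0.00263), a call that was lost with a pseudocount of 0.01. MSTRG.9830.1 rose in 3 of 3 libraries as well (log2 (fold change) 1.83 ± 0.15 (SE), limma adjusted p = 8.04e-05).

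The largest falls to 6 d belonged to a pair of neighbours in the numbering. MSTRG.5206.1 was at 5.81, 9.48, 4.34 FPKM (0 d), 0.16, 0.07, 0.06 (3 d), 1.22, 1.06, 0.92 (6 d) and 3.79, 2.82, 2.68 (9 d). All 3 libraries of 6 d were below those of 0 d (log2 (fold change) -2.44 ± 0.30 (SE), limma adjusted p = 0.000987), and those of 9 d lay between. MSTRG.5205.1, an lncRNA in the study's network, was at 5.52, 11.1, 2.66 FPKM (0 d), 0.2, 0.1, 0.07 (3 d), 1.4, 0.85, 0.77 (6 d) and 3.3, 2.56, 1.99 (9 d). It fell in all 3 libraries of 6 d (log2 (fold change) -2.38 ± 0.46 (SE), limma adjusted p = 0.0104), and 0 d replicate 2 held by far its highest value. The call was lost in a fit of the 6 libraries compared, with an adjusted p of 0.0643 in limma. Elsewhere the study names MSTRG.5025.1, a different transcript in the lncRNA table, and which of these was meant is unclear. MSTRG.8708.1 was at 1.95, 3.4, 1.6 FPKM (0 d), 0.21, 0.13, 0.13 (3 d), 0.83, 0.62, 0.54 (6 d) and 0.42, 0.34, 0.53 (9 d). It fell without overlap (log2 (fold change) -1.61 ± 0.32 (SE), limma adjusted p = 0.0126). The call was lost without 6 d replicate 2 (adjusted p = 0.0511 in limma), without 6 d replicate 3 (0.0565), in the 6 libraries compared (0.0556) and with a pseudocount of 1, where the change was -0.96.

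**Figure D3:**
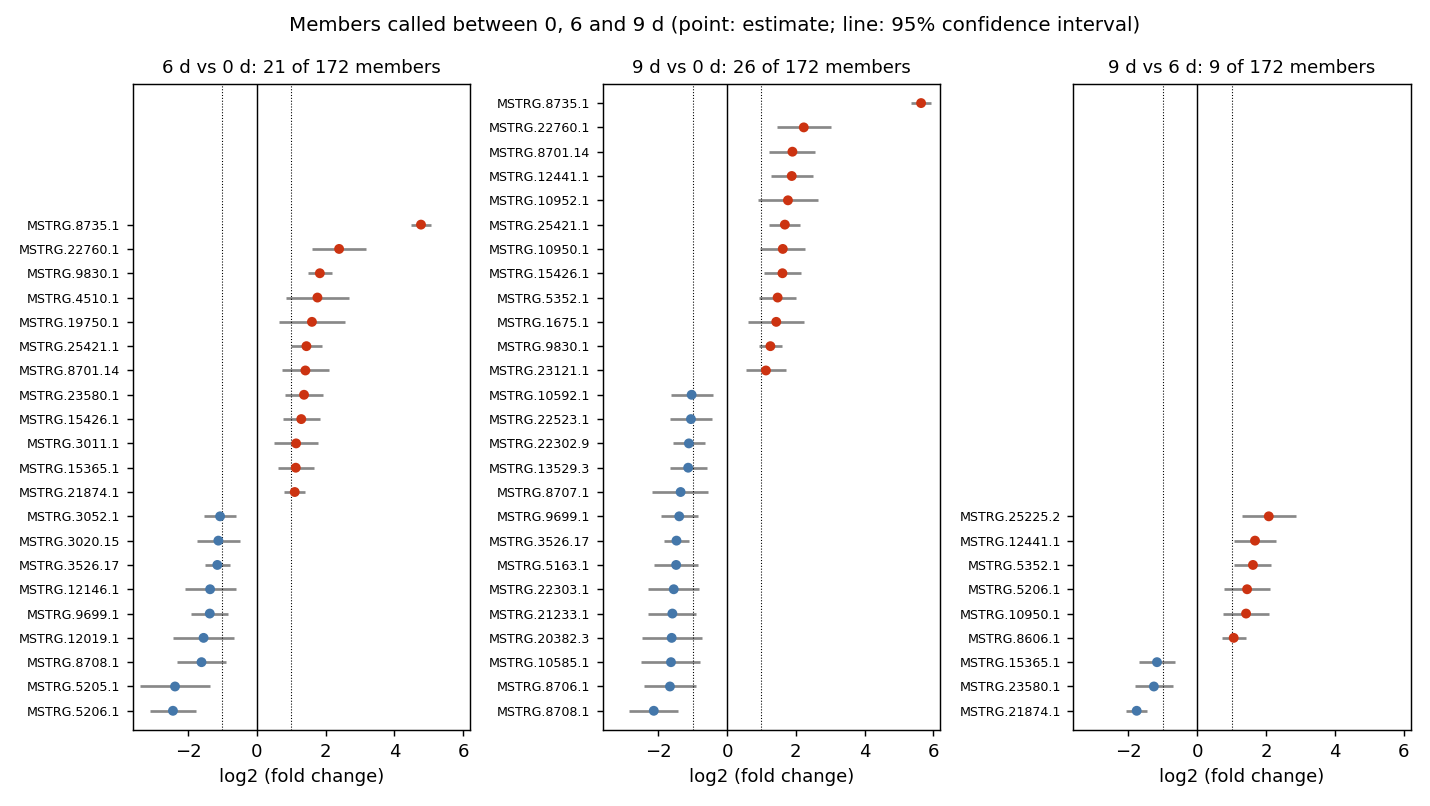
Log2 (fold change) with its 95% confidence interval in limma for each member called between 0, 6 and 9 d, with red points for higher and blue points for lower levels on the later day and dotted lines at the call limits of -1 and 1. The panels hold 21, 26 and 9 of the 172 members, and MSTRG.8735.1 lies far to the right in the panels that set 6 d and 9 d against 0 d.

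Of the other lncRNAs in the study's network, MSTRG.4322.1 and MSTRG.12019.1 were members too. MSTRG.5328.1 and MSTRG.21593.1 missed the floor of 0.3 FPKM, with lowest values of 0.06 and 0.23 FPKM on the other days. The rest went the other way: MSTRG.20301.1, MSTRG.20342.1, MSTRG.24321.5, MSTRG.11531.1 and MSTRG.11050.1 had their highest values at 3 d. MSTRG.4322.1 measured 1.39, 1.72, 1.24 FPKM (0 d), 0.14, 0.1, 0.12 (3 d), 1.96, 1.53, 1.46 (6 d) and 1.67, 1.64, 1.64 (9 d). Its levels at 6 and 9 d overlapped those of 0 d, and no difference between these days passed the test (log2 (fold change) 0.18 ± 0.21 (SE), limma adjusted p = 0.693, and 0.19 ± 0.21 with adjusted p = 0.632 for 9 d vs 0 d). MSTRG.12019.1 was at 1.64, 3.23, 1.11 FPKM (0 d), 0.23, 0.1, 0.07 (3 d), 0.73, 0.49, 0.47 (6 d) and 1.18, 1.07, 0.82 (9 d). It was lower at 6 d than at 0 d in 3 of 3 libraries (log2 (fold change) -1.55 ± 0.40 (SE), limma adjusted p = 0.041). That call was lost when any single library of 6 d or 9 d, 0 d replicate 1, 0 d replicate 2 or 3 d replicate 2 was left out. It was also lost with pseudocounts of 1 and 0.01, in the 6 libraries compared and without 0 d replicate 2 and 3 d replicate 1 together.

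Between 9 d and 0 d, 26 members were DELs, 12 higher (6.98%) and 14 lower (8.14%). The background was 2.95% higher and 3.84% lower over all tested lncRNAs, and 1.59% and 4.14% at the floor. The member median of -0.09 lay above the median of all, -0.25, and 96 members were above that value. For 57 members (33.1%) the 95% confidence interval lay within 1 of 0, against 35.8% at the floor and 18.0% of all tested. The count was 16 without 0 d replicate 1 (10 higher, 6 lower), 17 without 9 d replicate 1 (9 and 8), 16 without 9 d replicate 2 (9 and 7) and 14 with a pseudocount of 1 (7 and 7). After rescaling, 31 members were called, 22 higher and 9 lower, so that the share called higher went from 46.2% to 71.0%, and 20 of the 26 DELs were still called. Rises also outnumbered falls without 0 d replicate 2 (12 and 8), 3 d replicate 3 (14 and 12), 6 d replicate 1 (12 and 11) or 6 d replicate 3 (11 and 10), without a variance trend (14 and 13), in the 6 libraries compared (13 and 8) and without 0 d replicate 2 and 3 d replicate 1 together (15 and 11). Without 0 d replicate 3 there were 9 rises and 17 falls. Over all tested lncRNAs the calls went from 204 higher and 265 lower to 363 and 202 after rescaling, 200 and 141 without 0 d replicate 2 and 161 and 327 without 0 d replicate 3. The balance at 9 d thus depended on the scaling and on single libraries, among members and over all tested lncRNAs.

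MSTRG.8735.1 and MSTRG.22760.1 again led the rises at 9 d (log2 (fold change) 5.64 ± 0.13 (SE), limma adjusted p = 2.3e-09 and log2 (fold change) 2.23 ± 0.36 (SE), limma adjusted p = 0.00409), each higher in 3 of 3 libraries. The call of MSTRG.22760.1 was lost with a pseudocount of 0.01. MSTRG.8701.14 came next, at 0.68, 0.51, 1.22 FPKM (0 d), 0.09, 0.06, 0.11 (3 d), 2.08, 2.04, 2.44 (6 d) and 4.18, 2.8, 2.54 (9 d). Its levels at 6 d and 9 d lay above all 0 d libraries (log2 (fold change) 1.90 ± 0.30 (SE), limma adjusted p = 0.00409). Among the falls, MSTRG.8708.1 had the largest (log2 (fold change) -2.13 ± 0.32 (SE), limma adjusted p = 0.00317), lower in 3 of 3 libraries. MSTRG.8706.1 was at 2.51, 3.5, 2.47 FPKM (0 d), 0.08, 0.19, 0.04 (3 d), 1.97, 1.21, 1.12 (6 d) and 0.8, 0.59, 1.13 (9 d). It fell without overlap (log2 (fold change) -1.66 ± 0.35 (SE), limma adjusted p = 0.0155). The call was lost without 0 d replicate 2, 9 d replicate 1 or 9 d replicate 2, without 0 d replicate 2 and 3 d replicate 1 together, and with a pseudocount of 0.01, where adjusted p in limma ran from 0.0514 to 0.0656. MSTRG.10585.1 was at 2.83, 6.68, 2.19 FPKM (0 d), 0.24, 0.09, 0.13 (3 d), 1.83, 1.56, 1.24 (6 d) and 1.09, 1.24, 0.86 (9 d), and its 0 d replicate 2 stood above the other 2. Its fall (log2 (fold change) -1.63 ± 0.39 (SE), limma adjusted p = 0.028) was lost without 0 d replicate 1, 0 d replicate 2 or any library of 9 d and in the 6 libraries compared, where adjusted p in limma ran from 0.0594 to 0.0978.

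Between 9 d and 6 d, when all cells were on insulin alone, 9 members were DELs, 6 higher at 9 d (3.49%) and 3 lower (1.74%). Over all tested lncRNAs 0.825% were higher and 1.09% lower, and at the floor 0.622% and 0.871%. The member median was 0.04, beside -0.10 for all, 100 members lay above the median of all and 90 above 0. The interval lay within 1 of 0 for 80 members (46.5%), against 46.3% at the floor and 23.6% of all tested. This count was the least stable: leaving out a library gave from 3 to 11 DELs, with 5 without 0 d replicate 1, 4, 3 and 5 without 6 d replicates 1, 2 and 3, and 3, 3 and 4 without 9 d replicates 1, 2 and 3. It was 2 and 4 with pseudocounts of 1 and 0.01, 5 with a minimum mean of 1 FPKM and 14 after rescaling (10 higher, 4 lower), where the calls over all tested lncRNAs went from 57 higher and 75 lower to 100 and 90. In a fit of the 6 libraries compared, 8 members were called higher and 3 lower, beside 53 and 55 of all tested lncRNAs.

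MSTRG.25225.2 rose most from 6 d to 9 d, at 2.92, 1.35, 2.99 FPKM (0 d), 0.13, 0.27, 0.12 (3 d), 0.62, 1.15, 1.23 (6 d) and 4.68, 4.43, 4.12 (9 d). All 9 d libraries lay above all 6 d and 0 d libraries (log2 (fold change) 2.08 ± 0.35 (SE), limma adjusted p = 0.0142), and the call was lost without 6 d replicate 1, 9 d replicate 1 or 9 d replicate 2. MSTRG.12441.1, described above, was higher at 9 d in 3 of 3 libraries (log2 (fold change) 1.68 ± 0.28 (SE), limma adjusted p = 0.0132), and this call was lost without 6 d replicate 2 or any library of 9 d and with both other pseudocounts. MSTRG.5352.1 was at 0.77, 0.77, 0.6 FPKM (0 d), 0.28, 0.2, 0.22 (3 d), 0.7, 0.47, 0.75 (6 d) and 2.11, 1.93, 2.39 (9 d). Only the 9 d libraries stood out from the days other than 3 d (log2 (fold change) 1.62 ± 0.24 (SE), limma adjusted p = 0.00684), and the call was lost with a pseudocount of 1 at a change of 0.94.

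A level that peaked at 6 d marked the 3 members that fell to 9 d. MSTRG.21874.1 was at 11.5, 10.4, 11.3 FPKM (0 d), 1.39, 1.11, 1.18 (3 d), 22.6, 25.8, 23.4 (6 d) and 7.72, 7.43, 6.0 (9 d). Its 6 d libraries were above those of 0 d and its 9 d libraries below them (log2 (fold change) -1.76 ± 0.14 (SE), limma adjusted p = 0.00037). MSTRG.23580.1 was at 0.44, 0.58, 0.47 FPKM (0 d), 0.18, 0.17, 0.13 (3 d), 1.63, 1.38, 1.31 (6 d) and 0.56, 0.64, 0.44 (9 d). MSTRG.15365.1 had 1.01, 1.18, 0.85 FPKM (0 d), 0.12, 0.15, 0.07 (3 d), 2.43, 2.64, 1.94 (6 d) and 0.94, 0.89, 1.11 (9 d). In both, the 0 d and 9 d libraries overlapped and the 6 d libraries stood above them. MSTRG.23580.1 fell in 3 of 3 libraries (log2 (fold change) -1.26 ± 0.25 (SE), limma adjusted p = 0.0314), and so did MSTRG.15365.1 (log2 (fold change) -1.17 ± 0.24 (SE), limma adjusted p = 0.0345). Both calls were lost when 0 d replicate 1 or any library of 6 d or 9 d was left out, with pseudocounts of 1 and 0.01 and in the fit with a replicate block, where adjusted p was 0.0509 and 0.0537 in limma.

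Most members, 149 of 172, were the only lncRNA transcript of their locus. Assembled transcripts that were not kept as lncRNAs are left out of this count and of all sums over a locus. The other 23 members belonged to 17 loci with several lncRNA transcripts, in 15 of which 32 transcripts did not meet the rule. These stand here because a member shares their locus and because they did not meet the rule themselves, on the floor or on the ratio, and the assembler divides the reads of a locus among its transcripts. Their counts past the limits of the fit are therefore given as a description and are not independent of the members. Of 29 in the fit, 9 were called lower at 3 d than the mean of 0, 6 and 9 d (31.0%) and none higher in limma. At an unadjusted p below 0.05, 12 were lower and 0 higher. Over all tested lncRNAs 8.47% were called lower and 19.7% higher, with a median log2 (fold change) of 0.44 that rescaling brought to 0, while the median of the 29 was -1.30. For the members themselves, 171 of 172 passed the same limits, a count the rule produces, with MSTRG.25554.1 outside. With a pseudocount of 1 or a minimum mean of 1 FPKM, 1 of the other transcripts was called lower in place of 9.

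MSTRG.21095.2 was the most abundant of these 9, at 1.31, 1.57, 0.91 FPKM (0 d), 0.25, 0.65, 0.92 (3 d), 2.22, 2.64, 2.52 (6 d) and 2.33, 2.11, 2.8 (9 d). The 3 d libraries overlapped those of 0 d, at 0.92 and 0.91 FPKM, with a log2 (fold change) of -1.66. MSTRG.3752.4 was at 0.28, 0.83, 0.55 FPKM (0 d), 0 in all 3 libraries (3 d), 0.94, 1.61, 1.07 (6 d) and 2.78, 2.71, 1.07 (9 d). It was listed at 0 throughout 3 d and missed the floor of 0.3 FPKM in 1 library alone, so no fold change is given. MSTRG.23120.5 was at 0.67, 0.81, 0.29 FPKM (0 d), 0.2, 0.11, 0.06 (3 d), 1.8, 1.22, 1.1 (6 d) and 1.7, 1.07, 0.97 (9 d). Its 3 d libraries lay below all others, with a log2 (fold change) of -2.31. The calls of MSTRG.21095.2 and MSTRG.23120.5 were lost with a pseudocount of 1, at changes of -0.91 and -0.85. In contrast, MSTRG.4293.18, a partner of MSTRG.4293.10 named after its values were seen, was at 206, 35.0, 188 FPKM (0 d), 95.3, 106, 114 (3 d), 15.0, 184, 201 (6 d) and 143, 162, 10.8 (9 d). Its libraries of 0, 6 and 9 d fell into high and low values within each day, with 3 d between them.

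Locus MSTRG.22302 held the most members, 5 of 8 lncRNA transcripts. MSTRG.22302.1 was at 2.86, 2.87, 2.99 FPKM (0 d), 0.3, 0.38, 0.5 (3 d), 3.06, 1.83, 2.97 (6 d) and 3.3, 3.67, 2.6 (9 d). Its 0 d, 6 d and 9 d ranges overlapped. MSTRG.22302.9 was at 3.4, 3.64, 2.97 FPKM (0 d), 0.38, 0.41, 0.35 (3 d), 1.84, 1.75, 1.31 (6 d) and 1.93, 1.31, 1.31 (9 d), highest at 0 d. MSTRG.22302.4 was at 2.9, 3.3, 2.89 FPKM (0 d), 0.73, 0.42, 0.2 (3 d), 2.9, 2.01, 4.36 (6 d) and 3.62, 3.76, 1.1 (9 d), with 9 d replicate 3 far below the other libraries of that day. MSTRG.22302.2 was at 1.46, 1.47, 1.14 FPKM (0 d), 0.08, 0, 0.16 (3 d), 0.59, 1.15, 0.68 (6 d) and 0.48, 0.52, 0.79 (9 d). MSTRG.22302.6 had 1.43, 1.59, 1.33 FPKM (0 d), 0.21, 0.02, 0.12 (3 d), 0.78, 0.61, 0.64 (6 d) and 0.71, 0.51, 0.44 (9 d). They were both highest on average at 0 d. Summed over these 8 lncRNA transcripts, the locus was at 14.6, 17.5, 13.4 FPKM (0 d), 1.76, 1.23, 1.38 (3 d), 9.91, 8.92, 10.8 (6 d) and 10.8, 10.4, 7.19 (9 d). The lowest sum on the other days was 4.09 times the highest at 3 d. The share of members in this sum was 79.7% (0 d), 97.5% (3 d), 89.4% (6 d) and 91.9% (9 d).

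Both lncRNA transcripts of locus MSTRG.10583 were members. MSTRG.10583.2 was at 18.6, 17.1, 19.2 FPKM (0 d), 0.81, 1.1, 0.98 (3 d), 11.9, 14.5, 14.7 (6 d) and 9.43, 8.58, 9.38 (9 d), with the same order of days as MSTRG.10583.1. Their sum was 41.0, 38.1, 44.1 FPKM (0 d), 2.56, 2.88, 2.57 (3 d), 28.3, 33.4, 31.9 (6 d) and 23.9, 24.2, 24.6 (9 d). Its means were 41.1 ± 2.97 FPKM (SD, n = 3; 0 d), 2.67 ± 0.182 (3 d), 31.2 ± 2.61 (6 d) and 24.2 ± 0.381 (9 d). The days did not overlap. Both lncRNA transcripts of locus MSTRG.25225 were members as well. MSTRG.25225.1 was at 1.49, 2.36, 1.26 FPKM (0 d), 0.37, 0, 0.23 (3 d), 1.03, 0.95, 0.95 (6 d) and 2.63, 2.68, 2.22 (9 d). The sum of that locus was 4.41, 3.71, 4.25 FPKM (0 d), 0.5, 0.27, 0.35 (3 d), 1.65, 2.1, 2.18 (6 d) and 7.31, 7.11, 6.34 (9 d). It was lower at 6 d than at 0 d and highest at 9 d in every library. Over the 17 loci, the summed FPKM of the lncRNA transcripts was lower in all 3 libraries of 3 d than in all 9 others for 15. It met the ratio of 1.5 for 14. The sums include the members, which were chosen to be lowest at 3 d, and at MSTRG.10583 and MSTRG.25225 they hold nothing else.

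**Figure D4:**
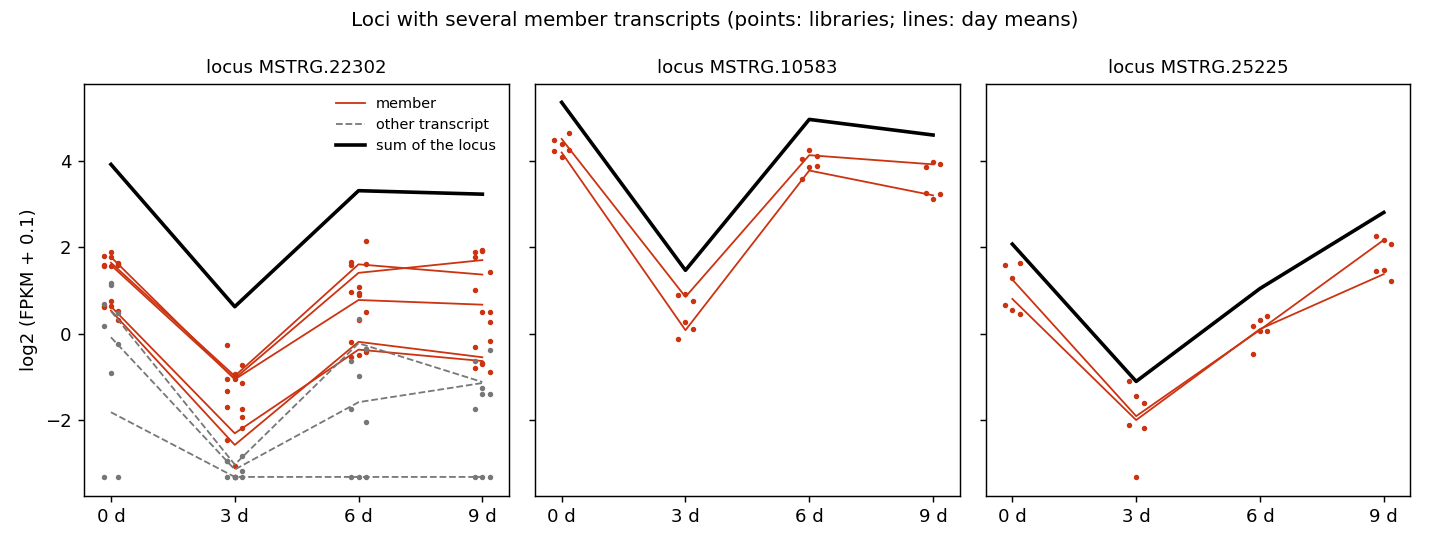
Values of log2 (FPKM + 0.1) by day for the 3 loci with most member transcripts, with small points for single libraries, thin lines for the day means of members (red) and other transcripts (grey, dashed) and a thick line for the day mean of the locus sum. Every line has its lowest day mean at 3 d or shares it with days at 0, and the sum at MSTRG.10583 went from 41.1 FPKM at 0 d to 2.67 FPKM at 3 d.

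Some lncRNAs are annotated genes and were measured in the mRNA table, apart from the assembled transcripts. Symbols of 27684 of 33714 rows (82.1%) matched a RefSeq gene (assembly ARS-UCD2.0), which gave a biotype, a comparison chosen after seeing the data. Of 259 annotated lncRNA genes at or above 0.3 FPKM in all 9 libraries of 0, 6 and 9 d, 17 met the same rule (6.56%), beside 172 of 3215 assembled lncRNAs (5.35%) and 852 of 10088 protein-coding genes (8.45%). The mirrored rule, with 3 d above the other days, took 12.1%, 11.3% and 5.51% of the rows at the floor in 3 d. Of 665 annotated lncRNA genes tested in limma, 65 were called lower at 3 d (9.77%) and 121 higher (18.2%), where all mRNA rows tested gave 11.4% lower and 8.29% higher. After each table was rescaled, an alternative also chosen after seeing the data, the rule took 7.03% of annotated lncRNA genes, 8.19% of assembled lncRNAs (278) and 8.99% of protein-coding genes. The mirrored rule then took 11.2%, 6.63% and 4.92%. How often assembled lncRNAs were low or high at 3 d alone thus depended on the scaling, and the differences between these groups were not tested.

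LOC107131356, the most abundant of these 17 genes, was at 71.2, 96.1, 59.6 FPKM (0 d), 37.2, 32.5, 34.7 (3 d), 64.2, 68.4, 84.1 (6 d) and 133, 65.1, 99.5 (9 d). LOC101907713 was at 42.0, 109, 36.6 FPKM (0 d), 15.3, 8.81, 7.59 (3 d), 96.4, 45.9, 59.4 (6 d) and 145, 89.8, 75.7 (9 d), with 0 d replicate 2 far above the other 0 d libraries. LOC112447824 was at 22.0, 23.1, 17.2 FPKM (0 d), 1.85, 0.99, 1.84 (3 d), 12.4, 10.3, 9.69 (6 d) and 11.1, 8.13, 7.36 (9 d). These 3 were named after their values were seen, and the 3 d libraries lay below all others in each, as the rule required.

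The state of the cells at 3 d was read from gene lists in the mRNA table, whose values the rule did not use, with 3 d set against the mean of 0, 6 and 9 d. Lists are described by their counts and medians beside 11.4% of 15402 mRNA rows called lower, 8.29% called higher and a median of 0.05. Calls in each list had the same counts after rescaling. Whether any of these genes has a part in the low lncRNA levels was not tested.

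Of 11 tested genes of the glucocorticoid response, the list nearest to the dexamethasone treatment, 7 were called higher and 1 lower in limma, with a median of 2.41 (10 higher and 1 lower at an unadjusted p below 0.05). Dexamethasone had been withdrawn before 3 d. SGK1 and DUSP1, named after their values were seen, were not called, and their means at 6 d were above those at 3 d. CEBPD, a transcription factor of early adipogenesis, was the most abundant and was not called, at 1055, 1044, 1189 FPKM (0 d), 2435, 2447, 2439 (3 d), 2109, 2221, 2214 (6 d) and 1449, 1646, 1753 (9 d). The libraries of 3 d lay above all other libraries. PDK4, a kinase that restrains pyruvate dehydrogenase, was at 0.82, 1.22, 0.78 FPKM (0 d), 63.9, 61.1, 63.8 (3 d), 2.25, 1.76, 1.89 (6 d) and 0.66, 0.69, 0.85 (9 d). Its 3 d libraries were far above all others (log2 (fold change) 5.71 ± 0.13 (SE), limma adjusted p = 3.18e-10). ZBTB16, a zinc finger transcription factor, was at 0.53, 0.25, 0.25 FPKM (0 d), 355, 330.0, 162 (3 d), 84.4, 93.0, 63.3 (6 d) and 15.6, 9.89, 11.5 (9 d). Its 6 d and 9 d levels lay between 0 d and 3 d (log2 (fold change) 5.16 ± 0.28 (SE), limma adjusted p = 1.26e-07). ERRFI1, a feedback inhibitor of the EGF receptor, was lowest at 3 d, at 27.2, 31.5, 26.7 FPKM (0 d), 13.6, 13.5, 15.2 (3 d), 136, 155, 139 (6 d) and 278, 256, 252 (9 d). No library of another day was as low (log2 (fold change) -2.85 ± 0.07 (SE), limma adjusted p = 4.4e-10).

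Adipocyte genes gave 7 rises and 1 fall in limma among 17 tested, with a median of 0.94 (11 higher and 5 lower at an unadjusted p below 0.05). Their summed FPKM was 1690.0, 1760.0, 1820.0 (0 d), 3790.0, 4330.0, 4180.0 (3 d), 2290.0, 2520.0, 2360.0 (6 d) and 2310.0, 2260.0, 2060.0 (9 d). Most of that sum was FASN, fatty acid synthase, at 1468, 1527, 1587 FPKM (0 d), 2672, 3219, 3020.0 (3 d), 1757, 1936, 1794 (6 d) and 1881, 1828, 1588 (9 d). It was high at 3 d but missed the fold limit (log2 (fold change) 0.80 ± 0.07 (SE), limma adjusted p = 3.93e-06). FABP4, a fatty acid carrier of adipocytes, was at 3.36, 3.02, 3.52 FPKM (0 d), 94.7, 86.2, 92.3 (3 d), 24.5, 26.4, 28.4 (6 d) and 7.59, 8.84, 10.8 (9 d). It was highest at 3 d without overlap (log2 (fold change) 3.28 ± 0.10 (SE), limma adjusted p = 1.96e-09). DGAT2, an enzyme of triglyceride synthesis, was at 0.04, 0, 0.18 FPKM (0 d), 20.3, 22.1, 23.1 (3 d), 7.71, 8.97, 8.13 (6 d) and 8.72, 7.51, 11.5 (9 d). It was highest at 3 d too (log2 (fold change) 3.25 ± 0.26 (SE), limma adjusted p = 2.27e-06). LEP, the adipocyte hormone leptin, was the only fall, at 2.17, 2.39, 2.47 FPKM (0 d), 0, 0.21, 0 (3 d), 9.97, 8.6, 5.5 (6 d) and 25.3, 16.6, 19.6 (9 d). It was listed at 0 in 2 of 3 libraries at 3 d and highest at 9 d (log2 (fold change) -5.65 ± 0.33 (SE), limma adjusted p = 2.61e-07). The other genes lower at 3 d than the mean of the other days, named after their values were seen, stayed within the fold limit, with changes of -0.89 for AGPAT2, -0.57 for CIDEC, -0.47 for CIDEA and -0.43 for ACSL1. Among the defining adipocyte genes, PPARG and PLIN1 were not matched by symbol and could not be read. ADIPOQ and CEBPA were low, with day means of at most 0.723 and 0.22 FPKM. Both of these means were those of 3 d, against 0.0233 and 0.0933 FPKM at 0 d.

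Of the preadipocyte and fibroblast list, 3 of 12 tested genes rose and 3 fell in limma, with a median of 0.01 (5 higher and 4 lower at an unadjusted p below 0.05). COL3A1, a fibrillar collagen, was the most abundant, at 105377, 102820.3, 109333 FPKM (0 d), 123034, 126884, 129901 (3 d), 99910.5, 95106, 93893 (6 d) and 173652, 163376, 175454 (9 d), and was not called. PDGFRA, a receptor that marks adipogenic progenitors, was at 168, 148, 163 FPKM (0 d), 925, 963, 900.4 (3 d), 164, 160.4, 161 (6 d) and 201, 198, 209.8 (9 d). Its 3 d libraries stood above all others (log2 (fold change) 2.42 ± 0.04 (SE), limma adjusted p = 1.03e-10). EBF2, a transcription factor of preadipocytes, was at 2.14, 2.28, 1.47 FPKM (0 d), 6.64, 5.74, 6.4 (3 d), 1.46, 1.48, 1.39 (6 d) and 1.1, 0.93, 1.13 (9 d). It too was highest at 3 d (log2 (fold change) 2.05 ± 0.12 (SE), limma adjusted p = 3.11e-07). POSTN, the matrix protein periostin, was at 59.4, 52.3, 58.1 FPKM (0 d), 2.13, 1.7, 1.88 (3 d), 11.4, 10.5, 12.7 (6 d) and 30.7, 28.5, 33.8 (9 d). COL1A1, a chain of type I collagen, was at 2949.6, 3146, 2957 FPKM (0 d), 877, 987, 958 (3 d), 3159, 3112, 2969 (6 d) and 3615, 3259, 3306 (9 d). Both were lowest at 3 d without overlap (log2 (fold change) -3.77 ± 0.09 (SE), limma adjusted p = 3.27e-10 and log2 (fold change) -1.75 ± 0.05 (SE), limma adjusted p = 9.84e-10). DLK1, a preadipocyte marker, was near 0 on all days, with day means of at most 0.0767 FPKM.

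Skeletal muscle genes were present in these cells, which came from digested muscle and were labelled as intramuscular adipocytes. Their summed FPKM was 1590.0, 1610.0, 1800.0 (0 d), 428, 524, 532 (3 d), 691, 646, 719 (6 d) and 667, 619, 700.0 (9 d), so that the sum was lowest at 3 d. Of 11 tested genes 4 fell and none rose in limma (6 lower and 2 higher at an unadjusted p below 0.05), with a median of -0.32. MYL1, a myosin light chain, was the most abundant, at 672, 655, 756 FPKM (0 d), 151, 221, 231 (3 d), 264, 237, 271 (6 d) and 305, 292, 342 (9 d). It was lowest at 3 d and missed the fold limit (log2 (fold change) -0.95 ± 0.12 (SE), limma adjusted p = 7.49e-05). TNNT1, the slow troponin T, was at 18.5, 17.8, 27.1 FPKM (0 d), 2.25, 0, 1.68 (3 d), 5.06, 7.34, 7.11 (6 d) and 8.25, 8.26, 8.08 (9 d). CKM, muscle creatine kinase, was at 132, 136, 130.3 FPKM (0 d), 2.51, 5.05, 2.28 (3 d), 19.2, 10.9, 10.1 (6 d) and 29.1, 23.2, 27.7 (9 d). Both were lowest at 3 d and highest at 0 d (log2 (fold change) -3.80 ± 0.77 (SE), limma adjusted p = 0.00195 and log2 (fold change) -3.49 ± 0.25 (SE), limma adjusted p = 1.01e-06). MYOD1, the determination factor of myoblasts, was named after its values were seen, at 239.8, 260.2, 303 FPKM (0 d), 107, 113, 108 (3 d), 51.9, 34.0, 57.3 (6 d) and 56.6, 43.2, 63.8 (9 d). It was highest at 0 d and lowest at 6 and 9 d. In all, 6 of the 11 genes had a 3 d mean above those of both 6 d and 9 d, namely MYOD1, MYF5, MYOG, MYH3, ACTA1 and TNNT3. Whether muscle cells contributed to the member lncRNAs was not tested.

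Markers of other cells were low. The endothelial list summed to 3.33, 3.83, 3.16 FPKM (0 d), 3.77, 3.59, 3.47 (3 d), 2.97, 2.59, 2.90 (6 d) and 3.50, 2.87, 3.65 (9 d). Of 9 genes 4 were tested, with 1 called higher and 1 lower in limma, 2 and 2 at an unadjusted p below 0.05, and a median of 0.29. VWF, von Willebrand factor, was the most abundant, at 2.23, 2.43, 1.94 FPKM (0 d), 1.79, 1.84, 1.56 (3 d), 1.95, 1.8, 2.14 (6 d) and 2.58, 1.97, 2.51 (9 d). TEK, a receptor of angiopoietins, was at 0.65, 0.92, 0.75 FPKM (0 d), 1.64, 1.48, 1.46 (3 d), 0.81, 0.69, 0.61 (6 d) and 0.38, 0.41, 0.52 (9 d). It was highest at 3 d (log2 (fold change) 1.18 ± 0.12 (SE), limma adjusted p = 1.99e-05). ERG, an endothelial transcription factor, was at 0.08, 0.09, 0.1 FPKM (0 d), 0.04, 0, 0 (3 d), 0.12, 0.07, 0.09 (6 d) and 0.33, 0.3, 0.39 (9 d). It was lowest at 3 d (log2 (fold change) -1.17 ± 0.14 (SE), limma adjusted p = 4.77e-05). Both calls were lost with a pseudocount of 1. PECAM1, CDH5 and KDR were at day means of at most 0.107 FPKM. The blood and immune list summed to 2.09, 1.21, 1.14 FPKM (0 d), 5.15, 5.94, 5.79 (3 d), 2.44, 3.40, 5.56 (6 d) and 4.49, 3.99, 3.35 (9 d), and 4 of 12 genes were tested. CD14, a monocyte receptor, was the most abundant, at 0.78, 0.48, 0.76 FPKM (0 d), 2.02, 2.66, 2.52 (3 d), 1.25, 1.32, 1.24 (6 d) and 2.21, 2.61, 1.83 (9 d). The 3 libraries of 3 d overlapped those of 9 d. CSF1R, the receptor of macrophage colony-stimulating factor, was the only call, at 0.29, 0.5, 0.2 FPKM (0 d), 0.84, 0.8, 0.97 (3 d), 0.31, 0.31, 0.34 (6 d) and 0.27, 0.37, 0.23 (9 d). It was highest at 3 d (log2 (fold change) 1.25 ± 0.19 (SE), limma adjusted p = 0.000272), a call lost with a pseudocount of 1. At an unadjusted p below 0.05, 2 were higher and 0 lower in limma. The median of the 4 was 1.07, and PTPRC, the common leukocyte antigen, was listed at 0 in all 12 libraries.

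**Figure D5:**
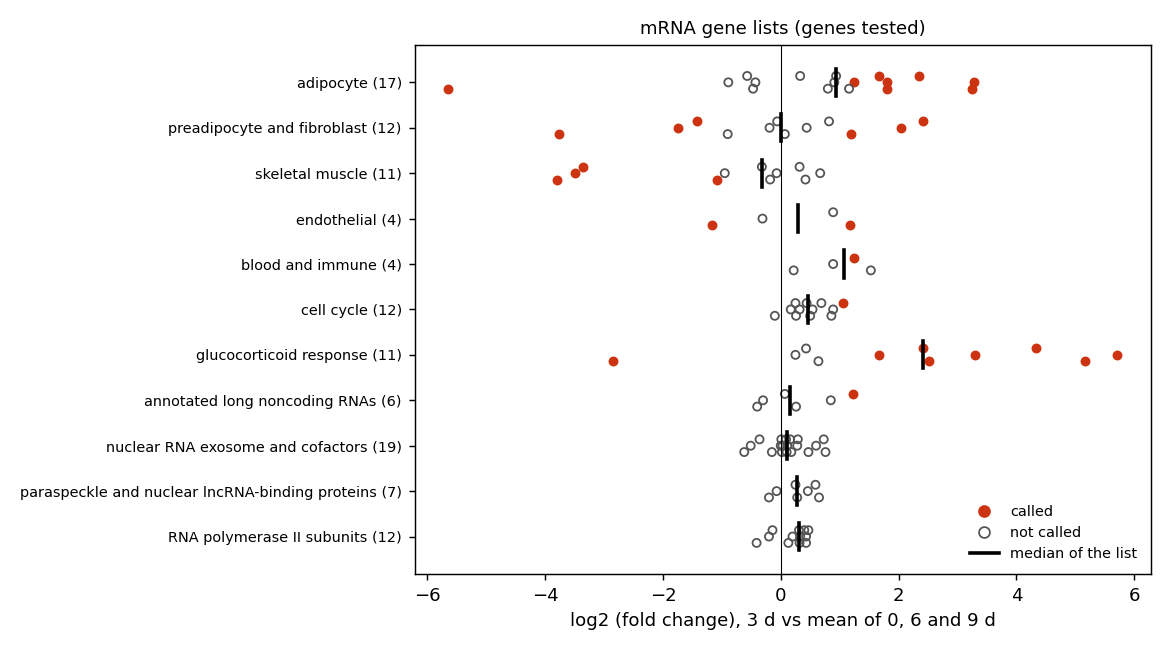
Log2 (fold change) of 3 d against the mean of 0, 6 and 9 d for each tested gene of 11 lists, with the number tested in brackets, filled points for genes called in limma, open points for others and a bar at the median. Medians run from -0.32 for skeletal muscle to 2.41 for the glucocorticoid response, and no gene was called among the exosome, paraspeckle and RNA polymerase II lists.

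In the cell cycle list 1 of 12 genes was called in limma, higher at 3 d, with a median of 0.47 (10 higher and 0 lower at an unadjusted p below 0.05). PLK1, a mitotic kinase, was the most abundant, at 68.8, 53.2, 66.8 FPKM (0 d), 77.4, 71.6, 66.8 (3 d), 65.1, 83.2, 77.6 (6 d) and 53.5, 46.5, 42.4 (9 d). Its 3 d libraries overlapped those of 0 d and 6 d. CDK1, the mitotic cyclin-dependent kinase, was at 23.6, 15.6, 12.2 FPKM (0 d), 42.2, 16.0, 42.0 (3 d), 22.3, 14.1, 14.0 (6 d) and 8.95, 11.4, 15.8 (9 d). Its 3 d replicate 2 fell within the range of the other days, and the other 2 stood above it (log2 (fold change) 1.05 ± 0.33 (SE), limma adjusted p = 0.0213). The call was lost without 0 d replicate 3, 3 d replicate 1, 3 d replicate 3 or 9 d replicate 1 and without 0 d replicate 2 and 3 d replicate 1 together.

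Of 19 tested genes of the nuclear RNA exosome and its cofactors, 0 were called in limma (5 higher and 2 lower at an unadjusted p below 0.05), and the median was 0.10. ZCCHC8, a subunit of the nuclear exosome targeting complex, was the most abundant, at 325, 297, 263 FPKM (0 d), 285, 196, 256 (3 d), 234, 234, 246 (6 d) and 203, 195, 215 (9 d). The 3 d libraries lay inside the range of the other days. Of 7 tested genes for paraspeckle and nuclear lncRNA-binding proteins, 0 were called (2 higher and 1 lower at an unadjusted p below 0.05 in limma), with a median of 0.28. HNRNPK, a nuclear RNA-binding protein, was the most abundant, at 1937, 2086, 2080.4 FPKM (0 d), 1717, 1883, 1572 (3 d), 2041, 2209, 1914 (6 d) and 1878, 1849.6, 1849.7 (9 d). Its 3 d libraries were lowest on average and overlapped those of 9 d. Of 12 RNA polymerase II subunits, 0 were called (8 higher and 1 lower at an unadjusted p below 0.05 in limma), with a median of 0.31. POLR2K was the most abundant, at 566, 542, 556 FPKM (0 d), 366, 327, 378 (3 d), 432, 443, 469 (6 d) and 398, 424, 454 (9 d). It was lower at 3 d than on the other days by less than the fold limit (log2 (fold change) -0.41 ± 0.05 (SE), limma adjusted p = 0.000124). Genes of these 3 lists were not called, which does not show that they were unchanged.

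Most of the 34 well-known annotated lncRNAs listed could not be read, since 27 were not matched by symbol. Of the 6 tested, 1 was called higher and none lower in limma (2 higher and 1 lower at an unadjusted p below 0.05), with a median of 0.16. RMRP, the RNA component of a mitochondrial RNA processing ribonuclease, was the most abundant, at 18083, 16850.2, 21499 FPKM (0 d), 18454, 17292, 18059 (3 d), 15656, 16267, 16589.6 (6 d) and 16381, 17592, 15618 (9 d). The libraries of 3 d overlapped those of 0 d and 9 d. H19, an imprinted lncRNA, was at 25.7, 26.1, 26.7 FPKM (0 d), 24.6, 27.2, 25.9 (3 d), 7.68, 7.4, 8.32 (6 d) and 6.54, 5.99, 7.04 (9 d). It was as high at 3 d as at 0 d and lower at 6 and 9 d (log2 (fold change) 1.23 ± 0.06 (SE), limma adjusted p = 8.64e-08), a different course from that of the members.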

How the data were processed

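RNA of cultured bovine intramuscular preadipocytes was sequenced by the authors at 0, 3, 6 and 9 d, 3 libraries per day. Their methods describe rRNA-depleted strand-specific libraries, whereas the labels describe poly(A) selection. Transcripts were assembled and quantified with HISAT2 and StringTie, and those without coding potential were kept as lncRNAs. The submitters' processing notes list HISAT2 2.0 and StringTie 1.3.0 with a mouse genome build. The methods name a cattle assembly and another HISAT2 release, so the reference and versions behind the values are uncertain. The deposited values are FPKM per transcript (lncRNA) and per gene (mRNA), given to 2 decimals without counts, so the reads behind a single value are not known from these tables. The 2 tables were fitted separately.

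Members and lists were chosen with earlier results of these data known. Values were taken as log2 (FPKM + 0.1), rows with a mean FPKM below 0.1 were left out (6906 lncRNAs and 15402 mRNA rows tested), and limma 3.58.1 in R 4.3.3 was fitted to all 12 libraries with a mean per day and trended variances. P-values were adjusted by Benjamini-Hochberg over all rows of a table, two-sided, and calls needed an absolute log2 (fold change) above 1 and an adjusted p below 0.05. The fit was tested on simulated data. Tables were made in Python 3.11.15 with NumPy 2.4.6 and pandas 2.3.3, and figures with Matplotlib 3.10.9.

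Named members were the 8 most abundant, the 8 with the largest ratio, the 3 largest called rises and 3 largest called falls per comparison, those named in the study, 3 on either side of each limit, the 3 loci with most members, the 3 most abundant other transcripts called lower and higher, and per gene list the most abundant gene and the 2 largest called rises and falls. Gene lists covered adipocyte, preadipocyte and fibroblast, skeletal muscle, endothelial, blood and immune, cell cycle, glucocorticoid response, annotated lncRNA, nuclear RNA exosome, paraspeckle and RNA polymerase II genes; 130 of 170 genes matched by symbol and 115 were tested. CircRNA and miRNA tables were not used here. Neighbouring genes were not analysed here, since the lncRNA table gives no positions. Alternatives varied the pseudocount (1 and 0.01), the filter, the scaling, the variance trend, the replicate block and the libraries, and counts by the rule were repeated on rescaled values.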

Additional observations from a re-analysis of the deposited data

How the results depend on the processing

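The tables hold no counts, so the reads behind a low FPKM are not known from them, and values near 0.1 FPKM rest on the 2 decimals given. The number of lncRNAs meeting the rule was 278 after rescaling, 167 of them among the 172; it was 206 and 129 at floors of 0.2 and 0.5 FPKM, 124 and 218 at ratios of 2 and 1.2, and 176 to 235 when a single library was left out. Members called (6 d against 0 d, 9 d against 0 d, 9 d against 6 d) were 8, 14 and 2 with a pseudocount of 1. They were 12 for 6 d vs 0 d in the 6 libraries compared, and for 9 d vs 6 d they were 4 with a pseudocount of 0.01, 5 with a minimum mean of 1 FPKM and 14 after rescaling. Leaving out a single library gave 12 to 26, 16 to 30 and 3 to 11. Fewer libraries give the test less information, yet the counts rose to 26, 30 and 11 without 3 d replicate 1. The causes of the changes with libraries, pseudocount and scaling were not tested. Other transcripts of member loci called lower were 1 with a pseudocount of 1 and 1 with a minimum mean of 1 FPKM, a filter that removes most of them, and 7 to 10 when a library was left out. List genes called were 30 to 32 when a library was left out, 27 with a pseudocount of 1 and with a minimum mean of 1 FPKM, and 35 with a pseudocount of 0.01. Without 0 d replicate 2 and 3 d replicate 1 together, chosen after seeing the data, the members called were 22, 26 and 12. Of the DELs, 5, 6 and 1 were called under every alternative in which they were tested. MSTRG.8708.1, among the 6 for 9 d vs 0 d, fell below the minimum mean of 1 FPKM and was not tested there. Refits of the 3 largest called rises and 3 largest called falls of each comparison kept the direction throughout, with the call kept in 325 and lost in 48. The replicate numbers are shared between days. Deviations of same-numbered libraries from their day means correlated at -0.111 to 0.0768 over 18 pairs, with a median of 0.0299. Pairs of different numbers gave -0.149 to 0.14 over 36 pairs, with a median of -0.0125. For 5 of 12 libraries the mean correlation was highest with libraries of their own number. Whether libraries are paired between days cannot be told from these values. With a replicate block, members called were 20, 25 and 7, 9 other transcripts of member loci were called lower and 31 list genes were called.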

Other observations

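The same rule with another day in the place of 3 d took far fewer lncRNAs: 35 were low at 0 d alone, 11 at 6 d alone and 16 at 9 d alone, beside 172 at 3 d. The mirrored rule took 108, 549, 47 and 37 lncRNAs that were high at 0, 3, 6 and 9 d alone. Among mRNA rows, 164, 963, 56 and 32 rows of 33714 were low at 0, 3, 6 and 9 d alone, and 616, 745, 67 and 121 were high. The counts of lncRNAs depended on the scaling: after rescaling, chosen after seeing the data, 278 were low and 299 high at 3 d alone. Of the mRNA rows 1026 were then low and 665 high.

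Member loci lay near each other in the assembler's numbering, a pattern chosen after seeing the data and given as a description, since positions were not analysed here. Of 166 member loci, 75 (45.2%) had another member locus within 5 numbers. Of 2954 loci at the floor without a member, 163 (5.52%) had a member locus that near, and the difference was not tested. In all, 9 runs held at least 3 member loci with gaps of at most 5, with 34 members among 60 lncRNA transcripts. The longest ran from locus 10583 to 10598 and held 7 members among 12 transcripts. The 26 transcripts of these runs that were not members included 22 tested, of which 13 were called lower at 3 d than the mean of the other days in limma and 0 higher, with a median log2 (fold change) of -2.15. Over all tested lncRNAs 8.47% were called lower and 19.7% higher. The runs were defined by members chosen for low 3 d values, so these counts are not a test, and 4 of the 26 shared a locus with a member. The run from 8720 to 8724 had 4 members among 5 transcripts and a median of -4.70 over its 5 tested transcripts, which include the members.

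MSTRG.5171.1 had very uneven libraries at 6 d and 9 d, where replicate 2 was at 1.41 and 1.60 FPKM and the others between 33.6 and 39.2 FPKM. MSTRG.4293.18 likewise had 15.0 FPKM in 6 d replicate 1 and 10.8 FPKM in 9 d replicate 3 beside 143 to 201 FPKM in the other libraries of those days. The cause was not tested.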
